A study of Mus musculus with 18 samples.

Results

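Of 153565 transcripts in the long-read annotation of mouse bone marrow progenitors, 5375 carried both the known status given by TALON, a program that matches long reads to annotated transcripts, and the Gencode biotype retained intron. These 5375 transcripts lay in 3827 host genes and made up part of the 23570 transcripts with known status, beside 12550 protein-coding ones. A further 16540 transcripts of the same biotype had no TALON status. Members were chosen by status and biotype. By the study's methods, detected transcripts were kept at 5 or more reads in 3 or more samples. The reads behind each known status were not analysed here. In the per-gene counts 41 hosts had no long read, and 123 protein-coding hosts had 1 to 9. This minimum therefore cannot be read from the per-gene counts.

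The reads came from LK cells (lineage-negative, cKit-positive progenitors) of 6 female C57BL/6 mice, 3 young (8 weeks; mice 1, 3 and 5) and 3 aged (72 weeks; mice 2, 4 and 6). No mouse was described as treated or genetically modified. Each mouse gave 1 library of single-cell cDNA, read both as short 3′ tags and as full-length molecules on the Pacific Biosciences Sequel and Sequel II instruments. The long reads on genes came to 1236696 to 2112841 per mouse and the unique molecular identifiers (UMIs) to 3628043 to 17585424 per mouse, with hosts taking 39.8% to 42.5% of the long reads on genes and 42.8% to 46.2% of the UMIs. The deposited counts are per gene, so every level below is that of the whole host gene and not of its retained-intron transcript.

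Introns are removed from pre-mRNA by the spliceosome, which cuts at a GT at the 5′ splice site and an AG at the 3′ splice site. A transcript that keeps an intron often meets a stop codon inside it, and such RNA can be held in the nucleus or degraded by nonsense-mediated decay. Regulated intron retention is known from granulocyte and erythroid maturation, and many splicing factors, the SR proteins among them, control their own RNA through alternative splicing coupled to decay.

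For 4 hosts each from the splicing and haematopoietic lists, a short intron between coding exons that a member kept whole is shown first, because it shows what retention adds to a message. They are the shortest such introns of at least 30 nt among the hosts reported, 1 per gene. Each run is the intron with 12 exonic bases on either side, 5′ to 3′, on GRCm38, read from the Gencode M21 transcript sequences. Capitals mark the dinucleotides at the intron ends and the first stop codon in the reading frame of the upstream exon.
U2af1l4 (chr7:30564120-30564214, plus strand, U2af1l4-228): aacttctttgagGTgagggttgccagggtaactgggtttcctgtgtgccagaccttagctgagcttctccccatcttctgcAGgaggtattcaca
Xab2 (chr8:3613279-3613379, minus strand, Xab2-205): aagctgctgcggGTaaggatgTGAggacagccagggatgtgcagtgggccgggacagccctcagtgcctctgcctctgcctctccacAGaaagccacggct
Hnrnpk (chr13:58393763-58393864, minus strand, Hnrnpk-217): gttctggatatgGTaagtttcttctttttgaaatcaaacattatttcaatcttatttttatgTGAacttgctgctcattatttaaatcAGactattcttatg
Prpf19 (chr19:10899113-10899216, plus strand, Prpf19-206): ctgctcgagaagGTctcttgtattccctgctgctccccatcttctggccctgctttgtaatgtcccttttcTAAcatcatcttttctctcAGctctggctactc
Stat6 (chr10:127659706-127659806, plus strand, Stat6-204): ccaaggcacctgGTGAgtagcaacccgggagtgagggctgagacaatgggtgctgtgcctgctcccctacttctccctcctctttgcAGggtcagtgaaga
Eng (chr2:32673413-32673603, plus strand, Eng-206): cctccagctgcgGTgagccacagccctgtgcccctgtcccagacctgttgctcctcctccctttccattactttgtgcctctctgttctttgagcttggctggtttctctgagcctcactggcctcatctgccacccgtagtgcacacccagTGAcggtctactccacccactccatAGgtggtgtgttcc
Il2rg (chrX:101267109-101267322, minus strand, Il2rg-204): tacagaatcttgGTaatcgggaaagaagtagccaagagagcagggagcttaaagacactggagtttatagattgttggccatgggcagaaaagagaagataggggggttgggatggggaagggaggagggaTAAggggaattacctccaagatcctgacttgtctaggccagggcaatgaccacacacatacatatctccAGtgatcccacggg
Hhex (chr19:37437356-37437578, plus strand, Hhex-203): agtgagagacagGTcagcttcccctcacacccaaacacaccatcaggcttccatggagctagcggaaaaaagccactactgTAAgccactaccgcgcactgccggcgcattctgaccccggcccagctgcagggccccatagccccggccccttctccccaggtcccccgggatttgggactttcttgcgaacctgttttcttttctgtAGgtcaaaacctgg
All 8 introns ran from GT to AG. The 71-nt intron of U2af1l4, a relative of the small U2AF subunit that recognises the 3′ splice site, had no stop in frame. Its length is no multiple of 3, so that reading on through it shifts the frame downstream. The 77-nt intron of Xab2, a spliceosome component also known from DNA repair, had a TGA from base 10. The 78-nt intron of Hnrnpk, which encodes a poly(C)-binding protein, had a TGA from base 51, and the 80-nt intron of Prpf19, a ubiquitin ligase of the activated spliceosome, had a TAA from base 60. In the 77-nt intron of Stat6, a transcription factor of interleukin signalling, the TGA began at base 2 and overlaps the splice site. In the other haematopoietic hosts the stop began at base 141 of the 167-nt intron in Eng (endoglin, a TGF-beta co-receptor), at base 120 of the 190-nt intron in Il2rg (the common gamma chain of interleukin receptors) and at base 70 of the 199-nt intron in Hhex (a homeobox factor).

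The biotype was then set against the structure of each transcript. A whole intron of a protein-coding transcript of the same gene lay inside an exon of 1428 members (26.6%), of which 942 kept 1 intron, 262 kept 2 and 224 kept 3 or more. Another 3832 members (71.3%) kept no whole intron and instead began or ended inside one, and 115 did neither. Most transcripts of this biotype therefore carried part of an intron at an end of the model. These ends are those of the Gencode models, and the read ends were not analysed here.

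The 3′ end was the usual place. It lay inside an intron in 4041 members (75.2%) against 49.8% of the retained-intron transcripts without status, whereas the 5′ end lay inside an intron in 37.2% and 52.1%, respectively. Of the 4041, 3837 (95%) began upstream of the intron, ran across its 5′ splice site and stopped before its 3′ splice site. They kept a median of 559 nt of intron (quartiles 239 and 1440), a median of 23.5% of introns with a median length of 2885 nt. The intron was internal in 80.4%, the first in 12% and the last in 6.90%. In the longest coding transcripts of the hosts, internal introns made up 84.2% of introns by number and 72.4% by length, and first introns 7.85% by number and 22.0% by length, so that the 3′ ends held more first introns than their number and fewer than their length. Kit-207 is an example from the receptor of stem cell factor, by which LK cells are sorted: a single exon of 3104 nt that stopped within intron 17 of 20 after 2627 nt of it. Srsf3-210, from an SR protein, kept 2722 nt of the 3454-nt first intron, Irf8-207, from a monocyte transcription factor, kept 3243 of 3714 nt of intron 2, and Bcl11a-205 kept 5256 of the 72602 nt of intron 2.

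Few of these 3′ ends carried the commonest polyadenylation signal. The hexamer AATAAA stood on the transcript strand in the last 50 bases of 784 of 5355 members with a sequence (14.6%), of 18.1% of the retained-intron transcripts without status and of 56.0% of known protein-coding transcripts. Among members it was found in 455 of 4029 that ended inside an intron (11.3%) and in 329 of 1326 that ended elsewhere (24.8%). ATTAAA without AATAAA stood in 4.28% of members and 13.2% of known protein-coding transcripts. Whether a run of A in the genome followed these ends was not tested, because bases beyond the 3′ end could be read for only 1418 members (26.4%).

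**Figure D1:**
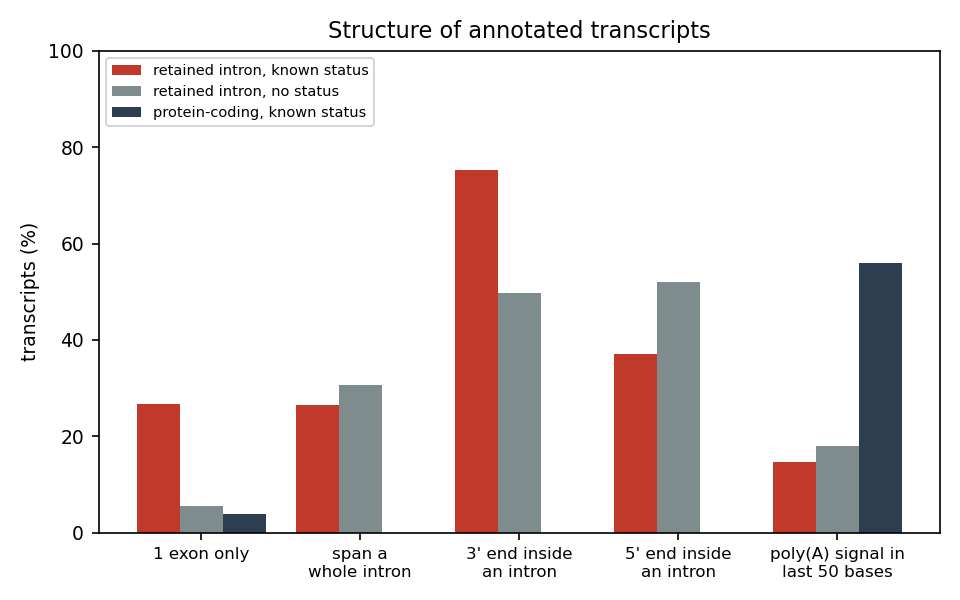
Share of transcripts (%, vertical axis) with each of 5 structural features, for retained-intron transcripts with known status (red), retained-intron transcripts without status (grey) and known protein-coding transcripts (dark). Intron features were not computed for the protein-coding group. Members had a single exon in 26.7% and a 3′ end inside an intron in 75.2%.

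Members had few exons. The median member had 2 exons and 1412 nt (quartiles 693 and 2662.5), against 3 exons and 825 nt for retained-intron transcripts without status and 7 exons and 2507.5 nt for known protein-coding transcripts. A single exon made up 1436 members (26.7%) but only 5.52% of those without status. Turned round, 61.1% of the 2349 annotated single-exon retained-intron models had known status, which fell to 24.8% at 2 exons, 19.6% at 3 to 5 and 14.9% at 6 or more. For protein-coding models the same shares were 18.1%, 16.7%, 17.6% and 24.3%. Over all exon numbers, 24.5% of retained-intron and 21.2% of protein-coding models had known status.

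The introns kept whole numbered 2253, counted by distinct start and end, and merging those that overlap within a gene left 1879 stretches in 1222 genes. They were short. Their median length was 353 nt (quartiles 143 and 883), and 44.9% were at or under 300 nt. The 12945 other introns of the same protein-coding transcripts had a median of 1023 nt (quartiles 310 and 2358), with 24.4% at or under 300 nt, and the 6472 introns kept only in transcripts without status had a median of 252 nt. Within single genes the order was usually the same: in 859 of 1184 hosts (72.6%) the median of the retained introns was below that of the others. The part of the counting rule in these differences was not tested.

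**Figure D2:**
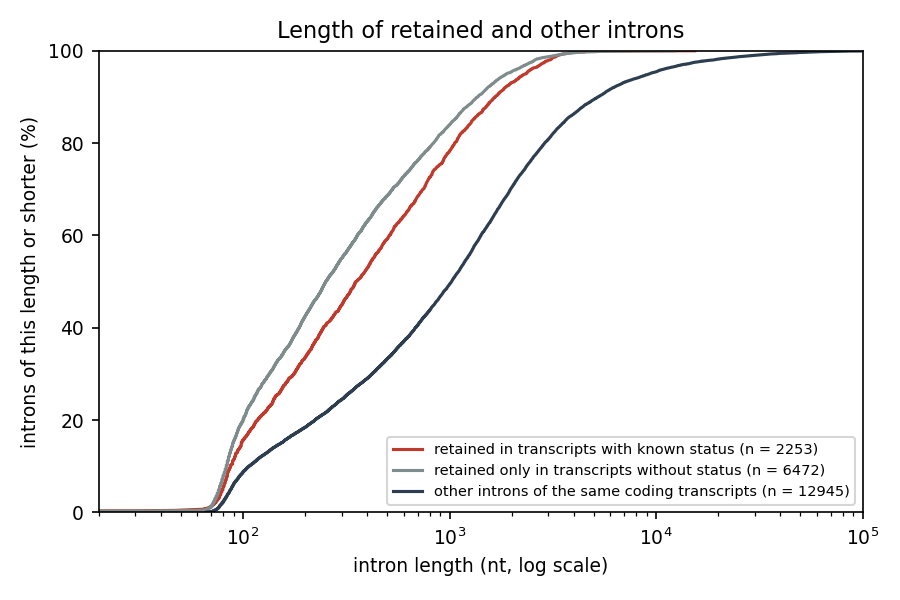
Cumulative share of introns (%, vertical axis) by length (nt, log scale) for introns kept whole in members (red, n = 2253), introns kept only in transcripts without status (grey, n = 6472) and other introns of the same protein-coding transcripts (dark, n = 12945). The red curve lies to the left of the dark one, with medians of 353 and 1023 nt.

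First introns made up 451 retained introns (20%) but 7.27% of the other introns of the same transcripts, and last introns 11.4% against 8.12%, while 67.1% were internal against 84.6%. Among introns kept only in transcripts without status the first intron had a share of 9.10%. The splice sites were ordinary. Of 2239 retained introns with a sequence, 2191 (97.9%) ran from GT to AG, 26 from GC to AG and 3 from AT to AC, the ends typical of some introns of the minor spliceosome, and 19 had other ends. Their median GC content was 49.7%.

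A retained intron between coding exons usually ended the reading frame. Of 1918 such introns 1912 could be read in frame, and 1728 of these (90.4%) held at least 1 stop codon. The share was close to this, 88.2%, among the introns kept only in transcripts without status, so it does not set the members apart. The length was a multiple of 3 in 642 of the 1918 (33.5%, against 33.1% in transcripts without status). In members 53 were both a multiple of 3 and free of stops, so that they would add residues without a stop or a shift. Whether any of these transcripts was translated was not measured.

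The extremes of length were of another kind. The 7 shortest entries had 1 to 4 nt, too short for splicing, and lay in Ankzf1, Oaz2, Oaz3, Srcap, Hyi and H2-Q7. Oaz2 and Oaz3 encode ornithine decarboxylase antizymes, which are made by a ribosomal frameshift. The next shortest was a 30-nt intron of Cul9. The longest whole introns were the 15387-nt first intron of the ubiquitin-conjugating enzyme gene Ube2d3 (Ube2d3-203), a 5284-nt intron of Sorbs2 and a 4723-nt intron of the Polycomb gene Cbx6.

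Some retained introns contain small RNAs. Of the 2253, 30 (1.33%) enclosed a small RNA gene, against 0.649% of the introns kept only in transcripts without status. There were 21 with a small nucleolar RNA (snoRNA), a guide for ribosomal RNA modification that is normally cut from a spliced intron, and 9 with a microRNA. The snoRNA hosts included the ribosome biogenesis genes Nop56, Nop58, Gnl3 and Ppan, ribosomal protein genes such as Rps3, Rps12 and Rpl12, the translation initiation factor Eif5 and the splicing factor Sf3b3. Nop56-218 kept 9 annotated introns that cover 1682 nt, and 3 of them held a snoRNA. Rps12-209 kept 4 with a snoRNA, and alternative introns of that gene overlap.

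Of the 3827 hosts, 3737 were protein-coding genes and 80 were long non-coding RNA genes. Most hosts (2727) had 1 member, 777 had 2, 229 had 3, 71 had 4 and 23 had 5 or more. The most members, 7 each, lay in Aup1, a lipid droplet and protein degradation factor, and Pan3, a subunit of a poly(A) nuclease. Cep192, Ptprs, Rbm5 and Tia1 had 6 each, the last being an RNA-binding protein that promotes 5′ splice site recognition. Ankrd17, Clasp1, Cuta and H2-K1 were among those with 5. The members of 1 gene differed widely: Aup1-210 was a single exon that kept 5 introns, Aup1-211 a 326-nt exon that kept 1 intron of 114 nt, and Aup1-216 kept no whole intron. H2-K1-209 kept 7 annotated introns. H2-K1 belongs to the class I histocompatibility genes, whose near-identical copies can share reads, so that its count is uncertain.

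The usual product was seen beside the retained-intron one in most hosts. Of 3737 protein-coding hosts, 2848 (76.2%) also had a protein-coding transcript with known status and 1714 (45.9%) a transcript that TALON added. In 597 (16.0%) the retained-intron transcripts were the only ones with a status. These differed in depth: the median host with a known protein-coding transcript had 566 long reads over all runs and the median host without one had 179, against 423 (quartiles 157 and 1065) over all hosts. No long read was counted on 41 hosts.

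Hosts were more frequent among splicing factors than among haematopoietic factors. A known-status retained-intron transcript was present in 123 of 233 splicing-factor genes with at least 1 long read (52.8%), in 59 of 198 genes for haematopoietic transcription factors, receptors and JAK-STAT signalling (29.8%) and in 3702 of all 13310 protein-coding genes with a read (27.8%). Within the splicing family the shares were 53.8% for SR proteins, 48.6% for hnRNP proteins, 50% for the core spliceosome and 58.3% for regulators and kinases. They were 30.3% for haematopoietic transcription factors, 28.3% for cytokine and growth factor receptors and 30.4% for JAK-STAT and downstream signalling. Factors of nonsense-mediated decay and RNA surveillance (56.1%), chromatin regulators (53.5%) and ribosomal proteins (50%) stood near the splicing factors, and proteasome (33.3%) and respiratory chain subunits (32.1%) near the haematopoietic ones.

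Both depth and annotation moved with these shares. Among all protein-coding genes the share rose from 4.93% at 1 to 9 long reads to 15.9% at 10 to 99, 36.2% from 100 to under 1000 and 47.2% at 1000 or more. From 100 to under 1000 reads splicing factors stood at 47.3% (44 of 93) and haematopoietic factors at 38.0% (38 of 100). At 1000 or more they stood at 62.5% (75 of 120) and 34.0% (17 of 50). Reads within these bins were not matched further, and the part of depth in the difference was not tested. Gencode held a retained-intron model for 177 of the 233 splicing factors, 103 of the 198 haematopoietic factors and 57.6% of all protein-coding genes with reads. Among genes with such a model, 69.5%, 57.3% and 48.3% were hosts.

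**Figure D3:**
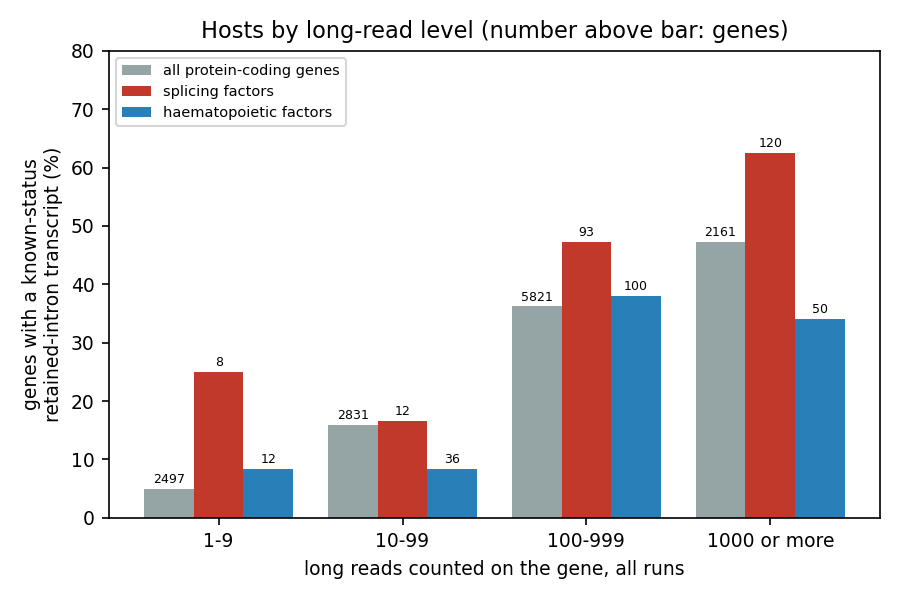
Share of genes with a known-status retained-intron transcript (%, vertical axis) by the long reads counted on the gene over all runs (horizontal axis), for all protein-coding genes (grey), splicing factors (red) and haematopoietic factors (blue), with the number of genes above each bar. At 1000 or more reads the shares are 47.2%, 62.5% and 34.0%, and bars at under 100 reads rest on few listed genes.

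Annotation also differed between chromosomes. There were 0.894 retained-intron models per protein-coding gene with reads on chromosome 4, 0.922 on chromosome 11 and 1.15 on chromosome X, against 2.07 on chromosome 5. Of those genes 14.4% were hosts on chromosome 4, 15% on chromosome 11 and 37.1% on chromosome 5. The part of annotation density in the shares of the gene lists was not tested.

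The 233 members from 124 splicing-factor genes had their 3′ end inside an intron in 79.4% and spanned a whole intron in 28.3%. The 81 members from 59 haematopoietic genes did so in 77.8% and 16.0%. The 102 introns kept whole in splicing factors had a median of 406.5 nt (quartiles 186.5 and 924.75), and the 19 in haematopoietic factors 484 nt (quartiles 207 and 1298). Hnrnpa2b1, an hnRNP that binds RNA during processing and transport, had 19253 long reads and 1 member, Hnrnpa2b1-208, with a 156-nt intron kept whole. Prpf19 had 3 members with whole introns of 80 and 164 nt. Srsf7-207 kept an 874-nt intron in a transcript of 7 exons with both ends outside introns. Among haematopoietic hosts Kit had 7127 long reads and 3 members and Gata2 3708 and 2, none of which spanned a whole intron. Myb, a regulator of progenitor growth with 6310 long reads, had 3 members, of which Myb-205 kept a 341-nt and Myb-206 an 860-nt intron.

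Age was compared next, as the total level of each host in the 3 young and 3 aged mice. In such totals fewer cells of a type and less RNA per cell cannot be told apart. By edgeR's quasi-likelihood test with Benjamini-Hochberg adjustment no host was called at an adjusted p under 0.05, either in long reads (3334 hosts tested; background 0.0% of 9244 genes called) or in UMIs (3581 hosts tested; background 0.0% of 12302 genes called). At an unadjusted p under 0.05 there were 40 hosts in long reads (1.2%, against 1.67% of all genes) and 94 in UMIs (2.62%, against 3.02%), and DESeq2 called none, with 28 and 58 at an unadjusted p. All aged mice lay above all young ones for 113 hosts in long reads (3.39%; background 3.07%) and below for 88 (2.64%; background 3.09%). The same counts in UMIs were 172 (4.80%; background 4.2%) and 118 (3.30%; background 3.67%).

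Hosts with large differences without overlap are given as values. Satb1, a chromatin organiser of lymphoid progenitors, had 20.9, 27.7 and 34.2 CPM (long-read counts scaled to the library total as adjusted by edgeR's TMM factors) in the young and 37.6, 46.3 and 51.8 in the aged mice, a log2 difference of 0.72 (SE 0.24, edgeR adjusted p = 1.00). The ages did not overlap in long reads.

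In UMIs, Txndc5, a protein disulphide isomerase, had 58.2, 44.2 and 48.9 CPM (here UMI counts scaled to the library total, also adjusted by TMM factors) in the young and 130.6, 63.5 and 58.4 in the aged mice, a log2 difference of 0.75 (SE 0.30, edgeR adjusted p = 1.00). B cell-like cells, which include antibody-secreting cells in their leading genes, numbered 15, 0 and 0 in young mice 1, 3 and 5 and 94, 19 and 1 in aged mice 2, 4 and 6. Without these and the macrophage/dendritic cell-like cells the log2 difference of Txndc5 was 0.21 (SE 0.11). Its values were then 51.0, 44.7 and 49.3 CPM in the young and 56.8, 52.5 and 57.9 in the aged mice, still without overlap. The part of these cells in the difference was not tested. Grcc10 had 110.7, 89.8 and 65.5 in the young and 60.4, 59.8 and 50.9 in the aged, a log2 difference of -0.63 (SE 0.19, edgeR adjusted p = 1.00).

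For host levels by lineage, 8436 cells were grouped by clustering without the host genes and named by markers. A cluster of 210 cells stayed unnamed and was not tested. The B cell-like (129 cells), macrophage/dendritic cell-like (76) and eosinophil-like (74) classes had too few cells per mouse for a test. There were 9 classes with enough cells for a test: HSC-like, LMPP/MPP-like, cycling-like, megakaryocyte-like, erythroid-like, mast cell/basophil-like, granulocyte progenitor-like, neutrophil-like and monocyte progenitor-like. UMIs were summed per mouse and class and given as CPM, scaled in the same way as above. Each class was compared with the mean of the others by edgeR, with the mouse as a block. That mean is taken over the log levels of the classes, so a log2 difference can exceed the ratio of mean CPM. The HSC-like class had 315 cells, 169 of them from mouse 4, and a median of 3633 UMIs per cell. It was tested in 4 mice, 1 young and 3 aged, because young mice 1 and 5 had only 19 and 11 such cells. The neutrophil-like cluster had 6 neutrophil markers and 5 markers of granulocyte progenitors among its leading genes. The granulocyte progenitor-like class took in a cluster of 435 cells, 156 from mouse 2, named on 3 markers and with a median of 2541 UMIs per cell. The LMPP/MPP-like class took in a cluster of 518 cells, also named on 3 markers, with Dscc1, Ung and E2f1 among its leading genes. Barcodes found in more than 1 mouse numbered 42 of 8394.

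Host genes changed with lineage about as often as other genes. Of 3221 hosts tested, 2897 (89.9%) were called in at least 1 class, against a background of 89.1% of 9401 genes. Erythroid-like cells differed most, with 1187 hosts higher (36.9%; background 33.2%) and 1010 lower (31.4%; background 32.8%). In HSC-like cells 543 were higher (16.9%; background 18.4%) and 746 lower (23.2%; background 20%), a balance that turned under DESeq2, run with its own scaling and no filter on low counts, to 858 higher and 511 lower of 3722. Without mouse 4 it was 261 and 428. The shares of all genes called under these settings are not given here, so these counts have no background of their own. The same holds for every count under DESeq2 or without mouse 4 below. Such counts show how far a result depends on the setting, and they do not set the hosts apart from other genes. Under DESeq2 the median log2 difference of all genes in HSC-like cells moved from -0.03 to 0.70 and that of the hosts from -0.05 to 0.20.

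In the other classes the hosts stood close to the background as well. In LMPP/MPP-like cells 642 were higher (19.9%; background 20.9%) and 342 lower (10.6%; background 9.73%), and in cycling-like cells 527 (16.4%; background 15.4%) and 258 (8.01%; background 7.52%). In mast cell/basophil-like cells 694 were higher (21.5%; background 22.3%) and 458 lower (14.2%; background 13.8%), and in megakaryocyte-like cells 463 (14.4%; background 14.4%) and 327 (10.2%; background 10.2%). Monocyte progenitor-like cells had 769 higher (23.9%; background 23.3%) and 517 lower (16.1%; background 15.2%), granulocyte progenitor-like cells 613 (19.0%; background 19.4%) and 379 (11.8%; background 11.2%), and neutrophil-like cells 557 (17.3%; background 17.7%) and 616 (19.1%; background 17.3%).

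The splicing-factor and haematopoietic hosts took opposite sides in erythroid-like and HSC-like cells. Among 122 splicing-factor hosts, 65 were higher and 26 lower in erythroid-like cells (background 33.2% and 32.8% of all genes, median log2 difference 0.16, against 0.04 over all hosts), and 16 were higher and 50 lower in HSC-like cells (background 18.4% and 20%, median log2 difference -0.30). Under DESeq2 the HSC-like counts were 26 and 31, with a median of -0.15 against 0.20 over all hosts, and without mouse 4 they were 8 and 31. In neutrophil-like cells 9 were higher and 32 lower (background 17.7% and 17.3%). Among 57 haematopoietic hosts, 8 were higher and 37 lower in erythroid-like cells (median -0.67), 26 higher and 12 lower in HSC-like cells (median 0.50) and 9 higher and 24 lower in neutrophil-like cells (median -0.39). They were 26 higher and 5 lower in LMPP/MPP-like cells (background 20.9% and 9.73%) and 28 higher and 2 lower in cycling-like cells (background 15.4% and 7.52%). Without mouse 4 the HSC-like counts of these hosts were 19 and 4. Of the 57, 6 were on the marker lists from which classes were named (among them Meis1, Mecom and Mllt3 for HSC-like, Satb1 for LMPP/MPP-like and Irf8 for monocyte progenitor-like cells). Of those named here, Mecom and Irf8 were among the leading genes of their class. Without the 6 the counts were 22 higher and 10 lower in HSC-like, 7 and 32 in erythroid-like and 21 and 5 in LMPP/MPP-like cells. No test compared the lists themselves.

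**Figure D4:**
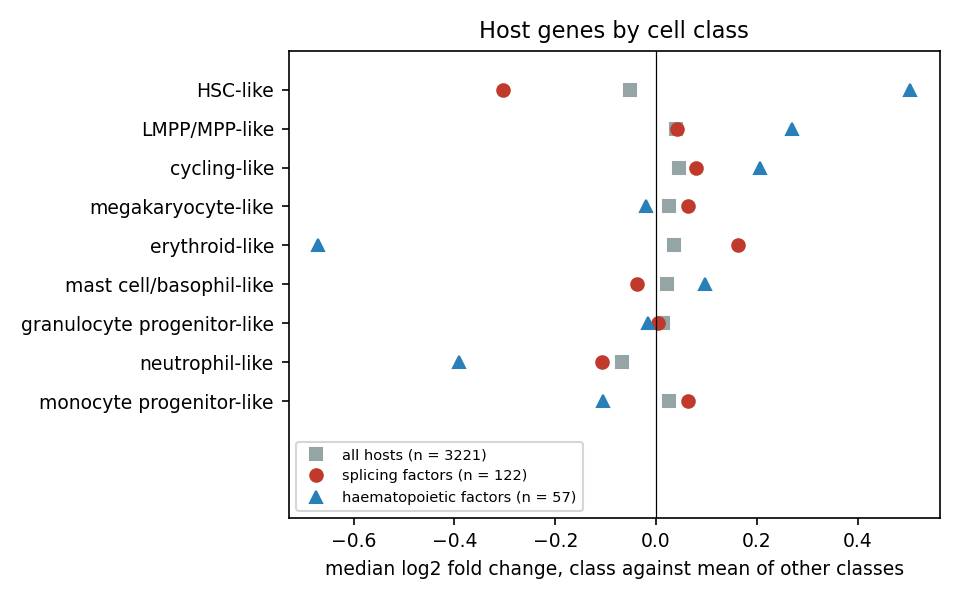
Median log2 difference of each class from the mean of the others (horizontal axis) for all hosts (grey squares, n = 3221), splicing-factor hosts (red circles, n = 122) and haematopoietic hosts (blue triangles, n = 57). In HSC-like cells splicing factors stand at -0.30 and haematopoietic factors at 0.50, and in erythroid-like cells at 0.16 and -0.67.

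The splicing lists differed among themselves. The background of all genes called higher and lower was 33.2% and 32.8% in erythroid-like and 18.4% and 20% in HSC-like cells. Of 48 core spliceosome hosts, 34 were higher and 3 lower in erythroid-like cells, and 0 higher and 27 lower in HSC-like cells (3 and 16 under DESeq2, 0 and 18 without mouse 4). Of 41 regulators and kinases, 12 were higher and 6 lower in HSC-like cells (18 and 3 under DESeq2, 8 and 2 without mouse 4) and 11 and 17 in erythroid-like cells. The regulators and kinases thus stood nearer to the background than the core spliceosome hosts did. Srsf3 had 299, 329, 314 and 301 CPM in the HSC-like cells of mice 2, 3, 4 and 6, below its mean in the other classes in 4 of 4 mice (log2 difference -1.13, SE 0.08, edgeR adjusted p = 2.27e-19). In erythroid-like cells it had 684 to 921, median 763, above the other classes in 6 of 6 mice. Srsf7 followed the same order, with 217, 155, 128 and 164 in HSC-like cells (-1.18, SE 0.10, edgeR adjusted p = 6.69e-17). Neither gene's HSC-like mice overlapped the mice of any other class, and under DESeq2 the log2 differences were -0.97 and -1.04. Rbm5, with 6 members, went the other way in HSC-like cells at 84.6 ± 37.2 CPM (SD, n = 4), a log2 difference of 0.72 (SE 0.19, edgeR adjusted p = 0.00109).

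The haematopoietic hosts differed in the class where they stood highest. Kit had 86.1, 67.8, 90.9 and 94.6 CPM in the HSC-like cells of mice 2, 3, 4 and 6, a log2 difference of 1.04 from the other classes (SE 0.21, edgeR adjusted p = 2.16e-05). It was present throughout, with class medians from 30.5 in megakaryocyte-like to 88.5 in HSC-like cells, and the HSC-like mice overlapped those of several other classes. Gata2, a factor of stem cells, mast cells and megakaryocytes, had 337 to 577 (median 422) in mast cell/basophil-like cells, above the other classes in 6 of 6 mice (log2 difference 3.35, SE 0.09, edgeR adjusted p = 6.43e-46). It followed at 129 to 215 in megakaryocyte-like and 116 to 210 in HSC-like cells, 2 classes that overlapped, and at 0 to 25.4 in neutrophil-like cells.

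Irf8, which directs monocyte fate, had 453 to 660 (median 521) in monocyte progenitor-like cells, a class that it helped to name, so that this level is a description, and 3.03 to 16.3 in erythroid-like cells. The lowest monocyte progenitor-like value lay above every value of the other classes, of which the highest was 169 in LMPP/MPP-like cells, where the log2 difference was 2.05. Myb was higher in granulocyte progenitor-like (log2 difference 0.85) and neutrophil-like cells (0.84) and lower in megakaryocyte-like cells (-1.16). E2f4, a cell cycle regulator needed for red cell formation, was higher in erythroid-like cells (1.32), Ifngr1, the receptor of interferon gamma, in neutrophil-like cells (2.11) and Eng in HSC-like cells (2.14). Each of the calls named here for Kit, Gata2, Irf8, Myb, E2f4, Ifngr1 and Eng kept its direction and its call in each of the alternatives that gave it a value.

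Other groups of hosts are given by their counts, to be read against the shares of all genes called higher and lower, which were 18.4% and 20% in HSC-like, 33.2% and 32.8% in erythroid-like and 17.7% and 17.3% in neutrophil-like cells. In HSC-like cells 0 of 24 respiratory chain hosts were higher and 20 lower, 0 of 12 proteasome hosts higher and 10 lower, and 2 of 13 snoRNA hosts higher and 9 lower. Under DESeq2 these counts were 1 and 17, 0 and 7, and 2 and 9, and without mouse 4 they were 0 and 16, 0 and 6, and 2 and 8. In erythroid-like cells the same lists had 21 higher and 2 lower, 10 and 1, and 10 and 0. Of 43 ribosomal protein hosts, 2 were higher and 25 lower in neutrophil-like cells, 20 higher and 0 lower in LMPP/MPP-like cells (background 20.9% and 9.73%) and 23 higher and 0 lower in monocyte progenitor-like cells (background 23.3% and 15.2%). In HSC-like cells 6 were higher and 10 lower, which turned to 24 and 4 under DESeq2. Of 38 chromatin regulators, 1 was higher and 19 lower in neutrophil-like cells.

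The hosts with large differences are described by class, leaving out the genes on the marker lists. In mast cell/basophil-like cells Lmo4, a LIM-domain cofactor of transcription, had 994 to 1709 CPM (median 1373) against 66.4 in the other classes, a log2 difference of 4.50 (SE 0.06, edgeR adjusted p = 3.24e-65). In neutrophil-like cells Ly6c2, a surface antigen of myeloid cells, differed by 5.66, with 305 to 2994 CPM. Its mean CPM was 1751 there and 153 over the other classes. Ly6c2 was also higher in monocyte progenitor-like (log2 difference 4.24) and granulocyte progenitor-like cells (3.36). Mouse 6 was the lowest in neutrophil-like cells, and also in granulocyte progenitor-like cells (89.0 CPM, next 329) and monocyte progenitor-like cells (220, next 605). Ly6c2 has a close copy in Ly6c1, so that its count is uncertain. In megakaryocyte-like cells Ehd3, an endocytic trafficking protein, differed by 5.33. In erythroid-like cells Ctse, a cathepsin, had 113 to 216 CPM and differed by 4.29, and Lmna, which encodes lamin A, differed by 3.98.

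In HSC-like cells Tnip3 and Gimap5 led with 4.41 and 4.27, and in LMPP/MPP-like cells Tespa1 with 2.19. In monocyte progenitor-like cells Tpm4, a tropomyosin, differed by 3.49, and in cycling-like cells the mitotic kinesins Kif15 and Kif23 by 2.19 and 1.97. In granulocyte progenitor-like cells Alas1, the first enzyme of haem synthesis, differed by 2.19, with a mean of 197 CPM against 86.3 over the other classes. The members of these hosts were of several kinds. Lmo4-206 began inside an intron, Ctse-203 ended 1044 nt into an intron of 3634 nt, and Ehd3-202 was a single exon that ran 2192 nt into the first intron. Kif15 had 5 members, of which Kif15-213 kept a whole intron of 633 nt. Tnip3-206 kept one of 2816 nt and Ly6c2-202 one of 1759 nt.

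**Figure D5:**
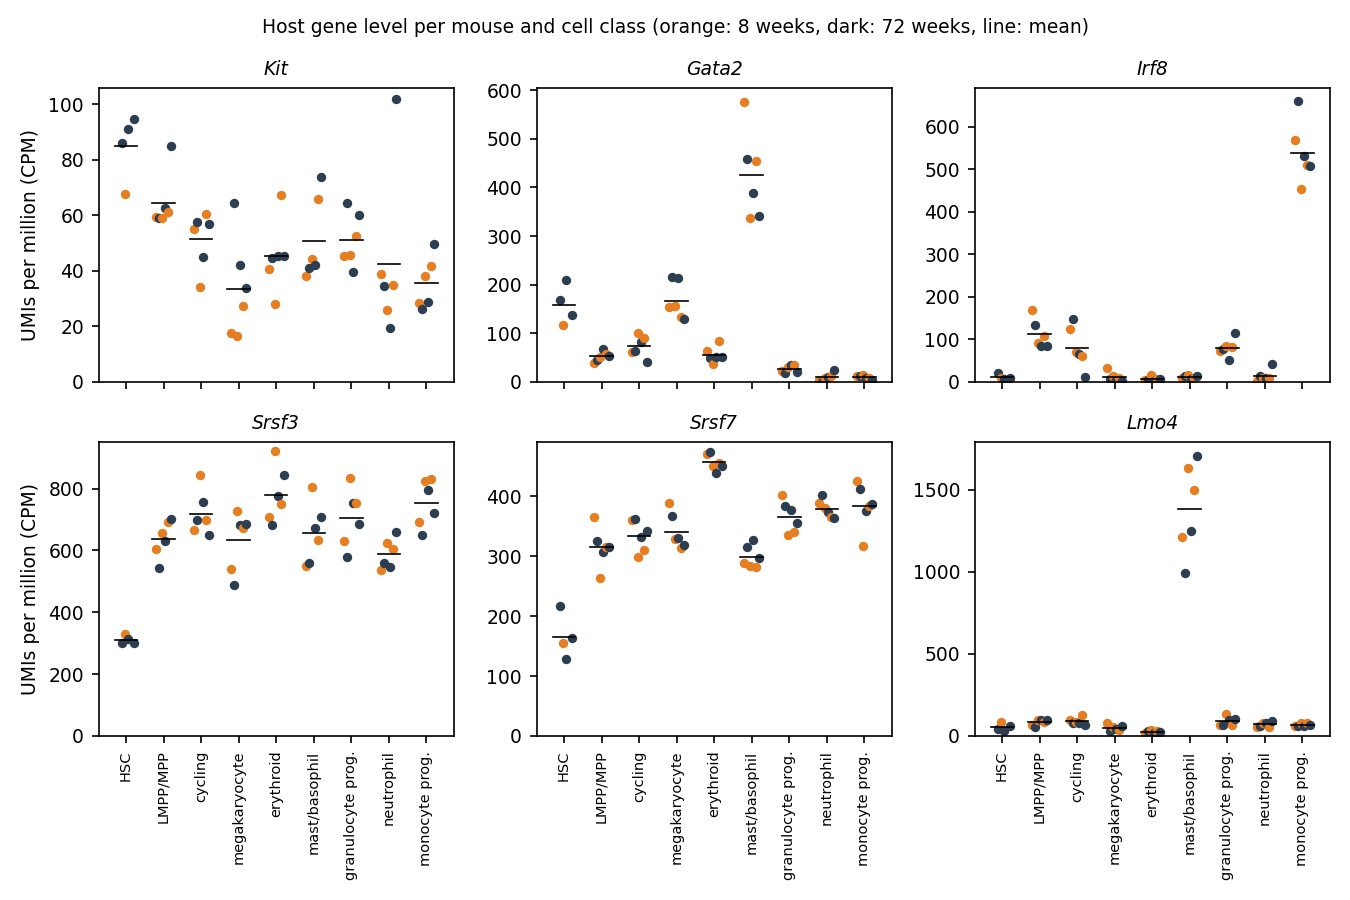
CPM of UMIs (vertical axes) of 6 host genes in each of 9 cell classes (horizontal axis), 1 point per mouse (orange 8 weeks, dark 72 weeks), with the mean as a line. Gata2 and Lmo4 stand highest in mast cell/basophil-like cells, Irf8 in monocyte progenitor-like cells, and Srsf3 and Srsf7 lowest in HSC-like cells.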

How the data were processed

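LK cells of 6 mice were analysed. According to the study's methods, long consensus reads were aligned with minimap2, corrected with TranscriptClean and annotated with TALON against Gencode M24 on GRCm38, and transcripts were kept at 5 or more reads in 3 or more samples. The detected transcripts were then merged with all of Gencode, so that a missing status marks a transcript that TALON did not list. The deposited counts used here are the authors' HTSeq counts of long reads per gene (12 runs, 2 per mouse, summed; 47.4% to 52.4% of reads were not on genes) and their UMI counts per gene and cell (Cell Ranger 3.0.2, Seurat 3; cells over the study's minimum of genes). The number at the end of a cell's name was read as the mouse and runs marked 02 as Sequel II, which the per-mouse values of UMIs and the split by instrument rest on. The runs named old and young were assigned to mice 2 and 1 by elimination, so that the long-read values of these mice rest on it while their age does not. The deposited annotation holds positions and no measurement. Replicates are mice.

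A retained intron was an intron of a protein-coding transcript of the gene, as annotated, that lay inside an exon of a member with at least 1 exonic base on both sides. The deposited annotation has no coding sequence lines for the 12550 known protein-coding transcripts, so these were taken from Gencode M21 (GRCm38) where all exons were the same (99.3%). Sequences came from Gencode M21 transcripts, matched by transcript and exon structure. Cells were clustered with Seurat 5.3.0 (2000 variable genes, 20 dimensions, resolution 0.8), leaving host genes out. A cluster was named with at least 3 markers among its 15 leading genes, and a class was tested with at least 20 cells in at least 4 mice. Scrublet marked 20 cells (0.237%), its calls were not used, and no cell was removed as a doublet. Counts were tested with edgeR 4.0.16 (filterByExpr, TMM, quasi-likelihood F-test, R 4.3.3) and Benjamini-Hochberg adjustment over all genes tested within a contrast, at 0.05. DESeq2 1.42.0 was an alternative. The tests were checked on simulated data with 200 genes changed 2-fold. The long-read age test recovered 61.5% of them, the short-read age test 50.5% and the lineage test 90%, with 10, 11 and 7 false calls. The age tests can therefore miss changes of this size, and the absence of calls by age does not show that host levels were unchanged. The mouse was a block in the lineage comparison because all classes of a mouse came from 1 library.

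The genes named are the 10 hosts with the most members, up to 5 hosts per splicing or haematopoietic list and 3 per other list with the most long reads, the hosts of each age comparison with the greatest differences, without overlap of the ages and at 10 or more CPM, the 3 hosts per class with the greatest positive difference at 50 or more CPM, and the shortest and longest introns. Sequences are of the shortest retained introns between coding exons in splicing and haematopoietic hosts. A selection of these genes is described, and which to describe, the snoRNA hosts, Cul9 and the single transcripts given as examples were chosen after their values were seen. Some genes that these rules name are not reported here. Members and lists were chosen with earlier results of these data known. Counting error is smaller in the mice with more reads, and levels near 10 CPM rest on few reads.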

Additional observations from a re-analysis of the deposited data

Results flagged for a closer look

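Among 25 groups of a named host in its leading class, 1 had 1 mouse far from the others, and by chance about 1 in 20 such groups would. Lpcat2, a phospholipid enzyme, was lowest in the mast cell/basophil-like cells of mouse 3 at 37.9, with the next mouse at 87.0 and the highest at 101.2.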

How the results depend on the processing

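Over 93 alternatives, 83 left the result on its side of the threshold or within 1.5 times its count or its 95% interval. Leaving out B cell-like and macrophage/dendritic cell-like cells (0 hosts by age) and introns under 30 bases (2246 introns) were chosen after seeing the data. The number of retained introns fell from 2253 to 1401 when only protein-coding transcripts with known status gave introns and to 1384 for members with 2 or more exons, with median lengths of 317 and 277.5 nt and 19.2% and 24.5% of members spanning a whole intron (29.6% with introns of any other transcript). With at least 100 long reads the share of hosts was 36.7% for haematopoietic factors and 39.2% for all protein-coding genes, against 55.9% for splicing factors. Without a filter on low counts edgeR called 3 hosts by age in long reads, Cd74 (log2 difference 1.27, edgeR adjusted p = 5.65e-09), Jchain (2.13, edgeR adjusted p = 4.84e-26) and Sphk1 (-0.72, edgeR adjusted p = 0.0314). Jchain had 657, 114 and 497 reads in young mice 1, 3 and 5 and 5814, 244 and 106 in aged mice 2, 4 and 6, so that the ages overlapped, and B cell-like cells numbered 15, 0 and 0 and 94, 19 and 1. Cd74 had 847, 64 and 144 reads in the young and 2554, 35 and 44 in the aged mice. Its ages overlapped too, and aged mice 4 and 6 lay below every young mouse. Macrophage/dendritic cell-like cells numbered 28, 1 and 0 in the young and 46, 1 and 0 in the aged mice. Sphk1 had 693, 327 and 235 reads in the young and 246, 199 and 235 in the aged mice, also with overlap. The cause of these changes was not tested.

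Without each mouse in turn, 2634 to 2937 hosts were called in at least 1 class, with 4787 to 5887 higher and 3344 to 4527 lower calls, and 0 to 0 by age. Without the replicate block, 2663 hosts were called, with 4623 higher and 3456 lower calls, against 2897, 5995 and 4653 with it. Sequel and Sequel II runs alone gave 0 hosts by age. The age groups are not paired. The planned count of A-rich stretches after the 3′ end was not run, because too few members had readable bases there. Read ends, reads per transcript and the depth behind each known status were not analysed here, and no statement is made on how much of a host's RNA kept an intron.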
